A study of Mus musculus with 36 samples.

Results

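The myosin heavy chains are described here as 10 genes chosen by symbol, of 51912 gene IDs in the count tables: Myh1, Myh2, Myh3, Myh4, Myh6, Myh7, Myh7b, Myh8, Myh13 and Myh14. All 10 were found once, and all 10 passed the filter on low counts in both muscles. RNA was sequenced from whole muscles of 3-month-old male C57BL/6 mice, either wild type (WT) or homozygous for a Musk allele (∆Ig3-MuSK) from which CRISPR-Cas9 had removed exons 6 and 7. These exons encode the third immunoglobulin-like domain of MuSK, the muscle receptor kinase of the neuromuscular junction, through which MuSK binds bone morphogenetic proteins. Both genotypes were sampled in the tibialis anterior (TA) and in the soleus, which makes 4 groups of 9 libraries and 36 libraries in all. No other allele or treatment was named for any group, and the deletion was carried in the germline rather than limited to muscle.

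A myosin heavy chain is the motor of the thick filament: its head binds actin and splits ATP, and its tail assembles into the filament. Each adult skeletal fiber is classed by the heavy chain it makes, from the slow and oxidative type I (Myh7) through IIa (Myh2) and IIx (Myh1) to the fast and glycolytic IIb (Myh4). In mouse, TA is a fast muscle and soleus a mixed slow muscle. Myh3 and Myh8 are the embryonic and perinatal chains of developing muscle, Myh13 is the chain of extraocular muscle, Myh6 is the chain of the cardiac atria and of the adult rodent ventricle, Myh7b is an ancient relative expressed in heart and slow muscle, and Myh14 encodes a nonmuscle myosin II.

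Libraries held 43492062 to 78660422 counts. TA libraries were made with the NEBNext Ultra II kit and soleus libraries with the NEBNext Ultra kit, so that muscle and library kit cannot be told apart in any comparison of TA with soleus. Musk itself stood at 4.25 ± 0.948 CPM (counts scaled to a fixed library total; SD, n = 9) in WT TA, 3.09 ± 0.391 in ∆Ig3-MuSK TA, 15.2 ± 1.82 in WT soleus and 11.3 ± 3.29 in ∆Ig3-MuSK soleus, and counts summed over the gene do not show whether its exons 6 and 7 were deleted. The labelled tissue matched its defining genes: 5 general skeletal muscle genes summed to 38481 to 50841 CPM in every library, whereas 4 heart muscle genes summed to 2.37 to 12.0 CPM. In WT TA, replicates 5 and 3 stood apart in long transcripts. Each library was scored by the mean log2 difference of long transcripts from the TA mean, less that of short transcripts. The score was -0.67 and -0.49 in these 2 and -0.24 to 0.20 in the other TA libraries. The order of the members in WT TA, the WT comparison of the muscles and the ratios in TA are also given without these 2. So are the genotype comparisons of the members that use TA.

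The 10 genes lie at 4 places in the mouse genome (GRCm38). Myh3, Myh2, Myh1, Myh4, Myh8 and Myh13 follow one another on the plus strand of chromosome 11 (chr11:67078300-67371586). Myh6 (chr14:54941921-54966927) and Myh7 (chr14:54970684-54994626) are neighbors on the minus strand of chromosome 14. Myh7b is on chromosome 2 (chr2:155611212-155634307) and Myh14 on chromosome 7 (chr7:44605803-44670843). The members have 38 to 47 separate exon blocks, which sum to 6016 to 11772 bases a gene.

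The chains share long stretches of coding sequence, which bears on how reads were assigned to them. Over the longest coding transcript of each gene, Myh7 and Myh6 were 91.7% identical, Myh1 and Myh2 91.1%, and Myh1 and Myh4 90.2%. Of all 50-base coding windows, 28.1% in Myh2, 27.9% in Myh1, 23.9% in Myh7, 23.8% in Myh6, 22.7% in Myh8 and 19.6% in Myh4 occurred exactly in another member. The share was 8.81% in Myh13 and 4.99% in Myh3, and no such window was found in Myh7b or Myh14. The following 60-base stretches cover the same part of the tail in the chains that define the 4 adult fiber types, and capitals mark the 30 positions at which not all 4 agree. This part was chosen because Myh1 matches the other chains least there, so it is not typical of the coding sequence. Each stretch spans 2 exons (Myh1 chr11:67215947-67217502, Myh2 chr11:67190413-67191386 and Myh4 chr11:67254106-67254496 on the plus strand, Myh7 chr14:54978663-54978887 on the minus strand), and such stretches are what allows reads of the adult chains to be told apart.
Myh7: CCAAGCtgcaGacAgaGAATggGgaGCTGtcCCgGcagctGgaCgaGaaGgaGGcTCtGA
Myh2: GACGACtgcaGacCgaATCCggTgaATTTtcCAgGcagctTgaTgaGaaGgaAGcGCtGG
Myh1: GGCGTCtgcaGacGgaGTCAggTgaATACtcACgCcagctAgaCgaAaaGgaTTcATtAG
Myh4: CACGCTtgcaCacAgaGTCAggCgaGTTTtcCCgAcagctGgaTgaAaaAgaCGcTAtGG
The opposite case is shown by the longest run of coding sequence that Myh7 and Myh6 have in common, 245 bases over 2 exons of each gene (chr14:54974947-54975347 in Myh7, chr14:54948327-54948725 in Myh6, minus strand). A read that falls wholly inside it fits both genes.
Myh7 and Myh6: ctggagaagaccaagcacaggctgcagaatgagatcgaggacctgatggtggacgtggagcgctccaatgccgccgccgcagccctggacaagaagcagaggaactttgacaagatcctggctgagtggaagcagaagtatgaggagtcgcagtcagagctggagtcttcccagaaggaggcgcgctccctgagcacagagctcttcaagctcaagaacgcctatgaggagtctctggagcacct

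Myh7, Myh6, Myh7b and Myh3 carry a microRNA in an intron, on the strand of the host gene. For the first 3, the mature forms from the RefSeq annotation of GRCm38.p6 are shown because 2 of them have the same seed (bases 2 to 8, in capitals). The third differs from that seed in its last base.
miR-208b-3p (in Myh7): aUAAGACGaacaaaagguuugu
miR-208a-3p (in Myh6): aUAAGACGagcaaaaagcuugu
miR-499-5p (in Myh7b): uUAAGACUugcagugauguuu
These libraries do not measure mature microRNAs. The counts assigned to these 3 microRNA genes were 0 to 14 in a library, and every TA library had 0.

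The same chains ranked differently in the fast and the slow muscle. Levels of different genes were compared as CPM per kilobase of exon. These lengths sum all annotated exons of a gene, and for some members they exceed the longest coding transcript by much. They were 8616 against 6135 bases for Myh7, 11772 against 6149 for Myh8 and 7137 against 6083 for Myh2. Orders that involve such genes, as that of Myh2 and Myh7 in soleus, depend on this choice of length. In WT TA the order was Myh4 (mean 3193), Myh1 (742), Myh2 (82.6), Myh8 (30.3), Myh13 (18.2), Myh14 (4.90), Myh3 (4.75), Myh7 (0.765), Myh6 (0.536) and Myh7b (0.491). The libraries of neighbors in this order overlapped for Myh8 and Myh13, for Myh14 and Myh3, and for Myh7, Myh6 and Myh7b. The order was the same in ∆Ig3-MuSK TA, where Myh8 and Myh13 no longer overlapped and Myh3 and Myh7 did. Without WT TA replicates 3 and 5 the order in WT TA was unchanged, from Myh4 (3439) to Myh7b (0.539). In WT soleus the order was Myh2 (1192), Myh7 (983), Myh1 (705), Myh4 (279), Myh6 (103), Myh8 (23.7), Myh14 (14.6), Myh13 (11.9), Myh7b (8.36) and Myh3 (7.71). Here each of the leading 5 overlapped its neighbor, so that the rank of the adult chains varied from library to library, as did that of the 4 last. In ∆Ig3-MuSK soleus Myh13 (14.6) and Myh14 (14.5) changed places, with overlapping libraries.

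**Figure D1:**
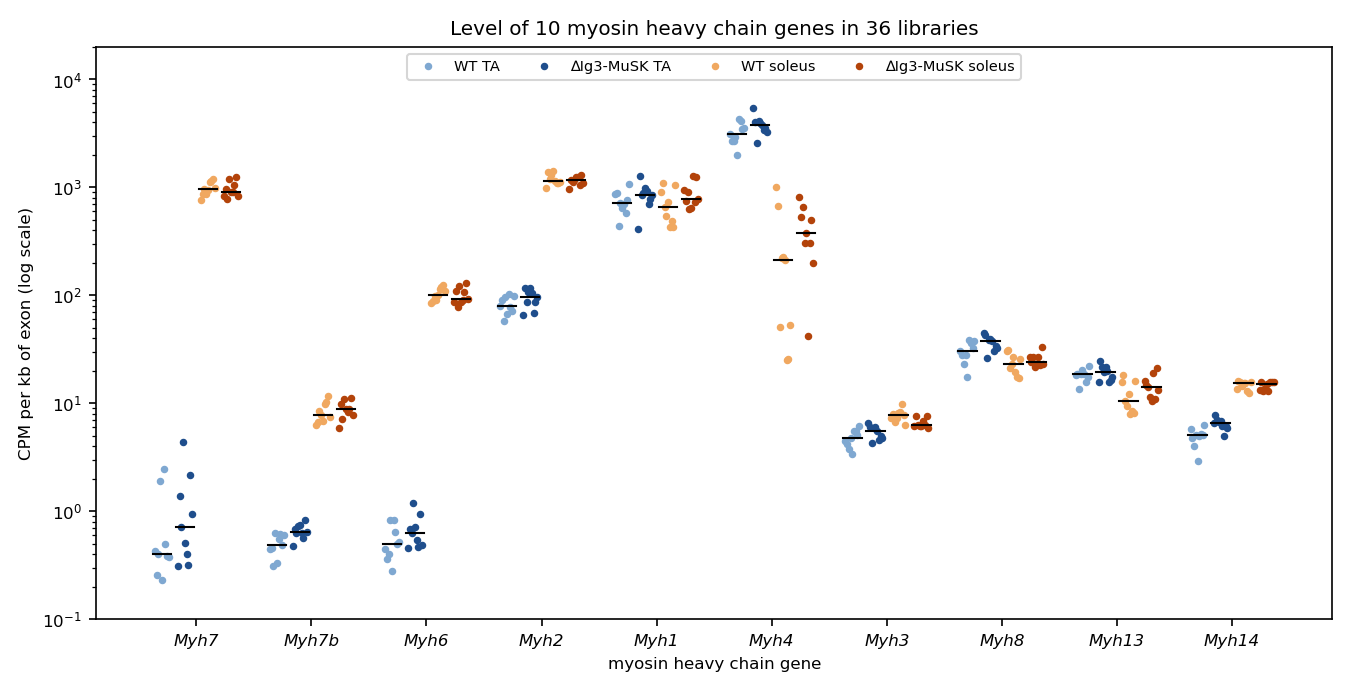
Level of each myosin heavy chain gene in each of the 36 libraries, in CPM per kilobase of exon on a log scale, with 1 point per library, groups of 9 libraries by color and black bars at the medians. Myh7 and Myh6 lie far higher in soleus than in TA, Myh1 overlaps between the muscles, and Myh4 in soleus spreads over 40.8-fold in WT.

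Soleus and TA differed in 9 of the 10 chains in both genotypes. A gene was called at a Benjamini-Hochberg adjusted p under 0.05 and a change of at least 1.2-fold in edgeR's quasi-likelihood test over all genes. In WT, 6 members were called higher in soleus and 3 lower, where 57.5% of all genes tested were called (30.2% higher and 27.3% lower). In ∆Ig3-MuSK mice the counts of members were the same, 6 higher and 3 lower, at 56.1% of all genes (28.5% higher and 27.6% lower). In bulk muscle, fewer fibers of a type and less RNA of that type per fiber cannot be told apart. The libraries of the muscles did not overlap at all for 7 members in WT (28.3% of all genes) and 6 in ∆Ig3-MuSK mice (29.4%). Without WT TA replicates 3 and 5, the call and direction of all 10 members in WT were as before, with log2 differences of soleus from TA of 10.10 for Myh7, -0.19 for Myh1 (adjusted p = 0.389), -3.65 for Myh4 and -0.50 for Myh8.

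Myh7, the type I chain, showed the widest gap. Its CPM (lowest, median and highest library) was 1.99, 3.44 and 21.04 in WT TA and 6542, 8248 and 10258 in WT soleus. Every soleus library was far above every TA library. Soleus exceeded TA by 10.33 on the log2 scale (SE 0.60, adjusted p = 9.86e-18) in WT and by 9.61 (SE 0.58, adjusted p = 3.97e-17) in ∆Ig3-MuSK mice, where the values were 2.66, 6.13 and 37.5 in TA and 6679, 7804 and 10764 in soleus. In TA the gene was close to absent and uneven, with 2 of 9 WT libraries (replicates 6 and 4) at 21.04 and 16.2 CPM and the other 7 at 4.24 or below. In ∆Ig3-MuSK TA, replicates 4, 8 and 2 were highest at 37.5, 18.7 and 11.9.

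Myh6 followed Myh7 closely in soleus. Its values were 1.89, 3.31 and 5.63 CPM in WT TA and 565, 673 and 832 in WT soleus (log2 difference 7.59, SE 0.22, adjusted p = 3.24e-27). In ∆Ig3-MuSK mice they were 3.07, 4.21 and 7.94 in TA and 519, 619 and 883 in soleus (log2 difference 7.21, SE 0.21, adjusted p = 1.05e-26). No soleus library came near a TA library. The count of Myh6 as a percent of that of Myh7 stayed between 7.46% and 8.96% in all 18 soleus libraries, although each gene varied more than 1.6-fold among them. In TA, where both genes were low, the percent ran from 21.2% to 116%. How many of the Myh6 counts in soleus come from reads that fit both genes was not tested.

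Myh7b, which hosts miR-499, was a low gene in both muscles. It measured 2.08, 3.25 and 4.16 CPM in WT TA against 41.9, 51.2 and 77.1 in WT soleus (log2 difference 4.09, SE 0.15, adjusted p = 3.89e-24). The ∆Ig3-MuSK values were 3.15, 4.30 and 5.45 in TA and 39.3, 58.5 and 74.9 in soleus (log2 difference 3.73, SE 0.14, adjusted p = 3.15e-23). The lowest soleus library was well above the highest TA library in each genotype. This gene shares no exact 50-base coding window with another member.

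Myh2, the IIa chain of fast oxidative fibers, was also a soleus gene. It stood at 415, 566 and 726 CPM in WT TA and at 7009, 8198 and 10102 in WT soleus (log2 difference 3.85, SE 0.12, adjusted p = 8.4e-26). In ∆Ig3-MuSK mice it stood at 466, 689 and 843 in TA and 6911, 8292 and 9351 in soleus (log2 difference 3.61, SE 0.12, adjusted p = 4.44e-25). It was the steadiest adult chain in soleus, with libraries within 1.44-fold of each other in WT and 1.35-fold in ∆Ig3-MuSK mice.

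Myh1, the IIx chain, was the single member not called between the muscles. Its values were 2794, 4519 and 6873 CPM in WT TA and 2719, 4194 and 7046 in WT soleus. They were 2610, 5447 and 8160 in ∆Ig3-MuSK TA and 4015, 4909 and 8117 in ∆Ig3-MuSK soleus. The ranges of TA and soleus lay almost on top of each other. The log2 difference was -0.07 (SE 0.19, adjusted p = 0.749) in WT and 0.03 (SE 0.19, adjusted p = 0.893) in ∆Ig3-MuSK mice. Its sign changed when single libraries were left out.

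Myh4, the IIb chain, ran the other way. It was the highest chain of TA at 11927, 18687 and 25804 CPM in WT and 15548, 22547 and 32882 in ∆Ig3-MuSK mice. In soleus it measured 150, 1283 and 6113 in WT and 252, 2256 and 4907 in ∆Ig3-MuSK mice. All TA libraries were above all soleus libraries, and the log2 difference was -3.52 (SE 0.53, adjusted p = 3.22e-07) in WT and -3.19 (SE 0.52, adjusted p = 1.56e-06) in ∆Ig3-MuSK mice. No other member varied as much among soleus libraries. The coefficient of variation of Myh4 was 123% in WT soleus and 57.4% in ∆Ig3-MuSK soleus, against 12.1% and 9.19% for Myh2 and 14.7% and 17.1% for Myh7. WT soleus replicates 1 and 2 held 6113 and 4086 CPM of Myh4, and replicates 7 and 8 held 150 and 156.

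The developmental and extraocular chains differed less. Myh8, the perinatal chain, was lower in soleus: 205, 359 and 452 CPM in WT TA against 204, 272 and 369 in WT soleus (log2 difference -0.36, SE 0.13, adjusted p = 0.0147), with overlapping libraries. In ∆Ig3-MuSK mice it was 309, 442 and 522 in TA and 254, 286 and 394 in soleus (log2 difference -0.52, SE 0.13, adjusted p = 0.000649). Myh8 in TA thus overlapped Myh8 in soleus in both genotypes, even though the fit called it. Myh13 was also lower in soleus, at 48.7, 65.4 and 113 CPM against 84.1, 114 and 138 in WT TA (log2 difference -0.62, SE 0.15, adjusted p = 0.000339). The ∆Ig3-MuSK values for Myh13 were 65.5, 87.7 and 131 in soleus and 96.7, 121 and 151 in TA (log2 difference -0.40, SE 0.15, adjusted p = 0.0167), again overlapping.

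Myh3, the embryonic chain, was higher in soleus, with 20.3, 28.6 and 37.2 CPM in WT TA and 38.3, 47.0 and 59.1 in WT soleus (log2 difference 0.70, SE 0.09, adjusted p = 4.01e-08). The WT libraries did not overlap, but those of ∆Ig3-MuSK mice did: 26.0, 33.4 and 39.8 in TA and 36.0, 38.2 and 45.9 in soleus. The difference there, 0.28 (SE 0.09, adjusted p = 0.00886), lay just above the 1.2-fold limit and fell below it when any of 6 of the 18 libraries was left out (∆Ig3-MuSK soleus replicates 2 and 8 and TA replicates 3, 7, 8 and 9), with values of 0.24 to 0.26. Among 5 other genes of regenerating or immature fibers, 3 were called higher and 1 lower in soleus in each genotype. Of all genes tested, 57.5% were called in WT and 56.1% in ∆Ig3-MuSK mice. Myh14, the nonmuscle chain, was higher in soleus without overlap: 21.1, 37.1 and 45.6 CPM in WT TA, 90.1, 111 and 116 in WT soleus (log2 difference 1.58, SE 0.09, adjusted p = 1.35e-17). It was 36.5, 47.8 and 56.7 in ∆Ig3-MuSK TA and 94.0, 109 and 115 in ∆Ig3-MuSK soleus (log2 difference 1.17, SE 0.09, adjusted p = 5.54e-14).

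The remaining class II heavy chains in the table, which are nonmuscle and smooth muscle genes, gave a frame for Myh14. All 3 (Myh9, Myh10 and Myh11) were called higher in soleus in WT and 1 of 3 in ∆Ig3-MuSK mice. Of all genes tested, 30.2% were called higher in WT and 28.5% in ∆Ig3-MuSK mice. Myh10, which encodes nonmuscle myosin IIB, differed by 2.74 on the log2 scale (SE 0.10, adjusted p = 1.62e-23) in WT and 2.38 (SE 0.10, adjusted p = 8.8e-22) in ∆Ig3-MuSK mice. Myh9, which encodes nonmuscle myosin IIA, differed by 0.59 (SE 0.12, adjusted p = 2.86e-05) in WT and 0.14 (SE 0.12, adjusted p = 0.296) in ∆Ig3-MuSK mice.

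Genes of the sarcomere and of calcium handling that go with the slow or fast chains were separated by muscle as the chains were. All 10 of the slow genes were called higher in soleus in both genotypes, with a median log2 difference of 7.14 in WT and 7.06 in ∆Ig3-MuSK mice, where the median of all genes was 0.02 and -0.00. Tpm3, a slow tropomyosin, differed by 6.84 (SE 0.12, adjusted p = 1.62e-34) in WT. All 11 fast genes were called lower in soleus in both genotypes, with medians of -1.91 and -1.62. Myl1, a fast essential light chain, differed by -2.03 (SE 0.10, adjusted p = 1.59e-19) in WT. Of 17 regulators of fiber type and of heavy chain genes, 8 were called higher and 6 lower in each genotype. Prox1, a transcription factor of slow fibers, differed by 4.39 (SE 0.15, adjusted p = 1.07e-24) in WT, and Maf, a transcription factor that activates fast IIb genes, by -3.25 (SE 0.14, adjusted p = 2.98e-21). Of 6 genes of myosin folding and turnover, 1 was called higher and 3 lower in each genotype. Of all genes tested, 57.5% were called in WT (30.2% higher and 27.3% lower). In ∆Ig3-MuSK mice 56.1% were called (28.5% higher and 27.6% lower). The counts of regulators and folding genes were not tested against these shares. Unc45b, the chaperone that folds the myosin head in muscle, differed by -0.82 (SE 0.06, adjusted p = 1.3e-14) in WT.

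The adult chain mix of the deletion mutant was compared with WT as shares. The counts of Myh7, Myh2, Myh1 and Myh4 were divided by exon length, and each was taken as a percent of their sum in a library. The exon length of Myh7, 8616 bases against 6135 in its longest coding transcript, makes its share smaller than a scaling by transcript would. In TA the mix was nearly all IIb and IIx: Myh4 made up 73.3% to 86.2% in WT (median 78.4%) and 73.3% to 92.0% in ∆Ig3-MuSK mice (median 78.3%). Myh1 made up 12.2% to 24.2% in WT (median 19.0%) and 6.91% to 24.3% in ∆Ig3-MuSK mice (median 19.5%). Myh2 made up at most 2.58% in WT and 2.45% in ∆Ig3-MuSK mice, with medians of 2.00% and 2.13%, and no library reached 0.1% Myh7. All of these ranges overlapped between the genotypes. The Myh4 share was 79.1% ± 4.90 (SD, n = 9) in WT and 79.5% ± 5.43 (n = 9) in ∆Ig3-MuSK TA, a difference of 0.360 percentage points (exact two-sided permutation test over 48620 assignments, p = 0.887, adjusted p over 8 shares = 0.898). The Myh1 share differed by -0.305 points (exact p = 0.898, adjusted p = 0.898) and the Myh2 share by -0.0628 points (exact p = 0.744, adjusted p = 0.898). The Myh7 share, 0.0182% ± 0.0176 in WT and 0.0260% ± 0.0261 in ∆Ig3-MuSK TA, gave an exact p of 0.488 (adjusted p = 0.780). None of these differences in TA exceeded the spread between libraries. Without WT TA replicates 3 and 5 they were 0.343 points for Myh4, -0.309 for Myh1, -0.0400 for Myh2 and 0.00553 for Myh7 (adjusted p = 0.906 for each).

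In soleus the 4 chains were all present in quantity. Myh2 took 26.8% to 44.3% in WT (median 39.8%) and 27.2% to 39.5% in ∆Ig3-MuSK mice (median 34.4%). Myh7 took 20.7% to 43.5% (median 30.8%) and 22.5% to 36.4% (median 28.4%). Myh1 took 14.7% to 32.5% (median 22.0%) and 19.2% to 37.0% (median 26.1%). Myh4 was the chain whose share differed most between animals, from 0.910% to 27.7% in WT (median 6.82%) and from 1.21% to 22.9% in ∆Ig3-MuSK mice (median 11.6%). The ranges of the genotypes overlapped for every chain. The means in WT and ∆Ig3-MuSK soleus were 38.2% ± 5.43 and 34.1% ± 3.77 for Myh2 (difference -4.12 points, exact p = 0.0806, adjusted p = 0.575) and 32.0% ± 8.13 and 28.4% ± 4.36 for Myh7 (difference -3.61 points, exact p = 0.256, adjusted p = 0.575). They were 21.8% ± 5.86 and 25.5% ± 5.39 for Myh1 (difference 3.66 points, exact p = 0.187, adjusted p = 0.575) and 7.94% ± 9.00 and 12.0% ± 6.51 for Myh4 (difference 4.06 points, exact p = 0.287, adjusted p = 0.575). The mean shares of the slower chains were thus lower and those of the faster chains higher in ∆Ig3-MuSK soleus, but no share passed the test. The shares of a library depend on one another, so these directions are not separate results. In level, Myh7 and Myh2 differed by only -0.04 and -0.06 on the log2 scale, and Myh1 and Myh4 by 0.30 and 0.57, none of them called.

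**Figure D2:**
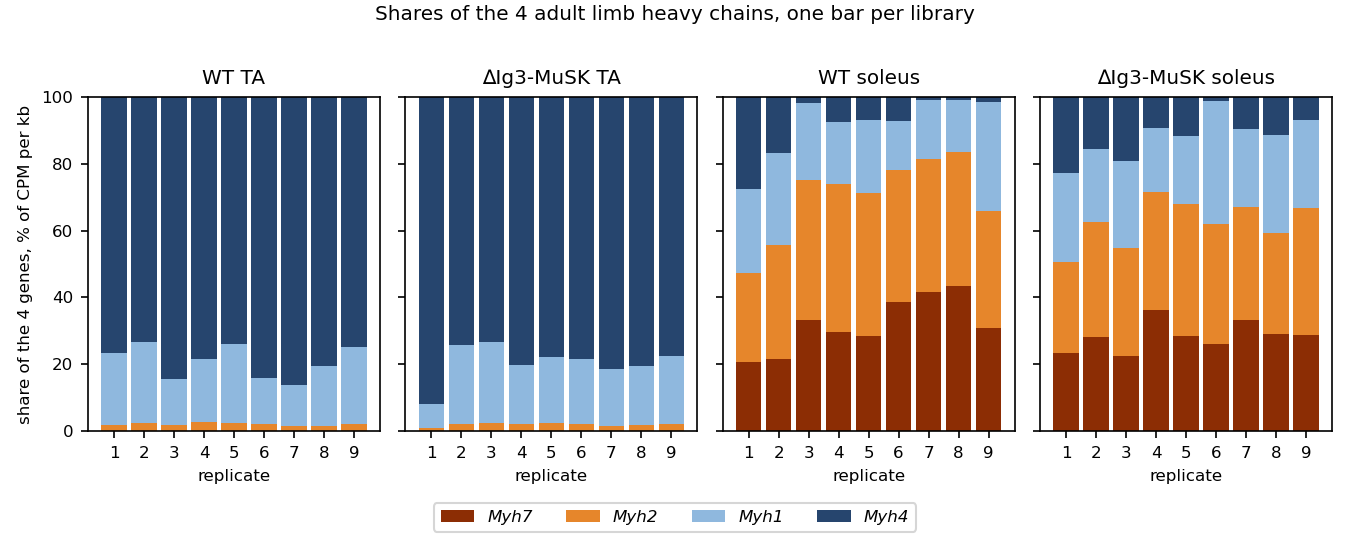
Percent of Myh7, Myh2, Myh1 and Myh4 in their summed counts per kilobase of exon, by library in the 4 groups of 9. TA libraries are mostly Myh4 (73.3% to 92.0%), and in soleus the Myh4 part ranges from 0.910% to 27.7%.

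The mix varied widely among the WT soleus libraries. Replicates 1 and 2 had Myh4 shares of 27.7% and 16.8% and the lowest Myh7 shares of the group (20.7% and 21.5%), while replicates 7 and 8 had Myh4 shares of 0.910% and 0.947% and Myh7 shares of 41.6% and 43.5%. WT replicates 3 and 9 were also low in Myh4 (1.76% and 1.65%), with Myh7 at 33.4% and 30.8%. Replicate 9 had the most Myh1 of the group (32.5%). Replicates 4, 5 and 6 lay between, at 7.51%, 6.82% and 7.29% Myh4. In ∆Ig3-MuSK soleus, replicate 6 was the library with least Myh4 (1.21%) and most Myh1 (37.0%). For each of the 4 chains the range among WT libraries was wider than the difference between the genotype means.

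No member was called between the genotypes in TA, in soleus or in the genotype-by-muscle interaction. The calls were 0 of 10 in TA, where 0.0149% of all genes were called, 0 of 10 in soleus, where 0.952% were called, and 0 of 10 in the interaction, where 0.0% were called. At an unadjusted p under 0.05 in edgeR, 2 of 10 members passed in TA (24.1% of all genes), 1 of 10 in soleus (18.5%) and 2 of 10 in the interaction (24.9%). The libraries of the genotypes overlapped for every member in both muscles (0.0288% of all genes did not overlap in TA and 0.072% in soleus). With DESeq2, Myh14 in TA passed the call (adjusted p = 0.0466), and no member did in soleus or in the interaction.

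In TA every member had a higher estimate in ∆Ig3-MuSK mice, from 0.08 for Myh13 to 0.69 for Myh7 on the log2 scale, with a median of 0.25 against -0.00 for all genes. Myh14 was nearest to a call (log2 difference 0.40, SE 0.11, adjusted p = 0.144; 0.0254 with all 36 libraries in one fit). Myh7b gave 0.42 (SE 0.13, adjusted p = 0.146), Myh8 0.26 (SE 0.13, adjusted p = 0.226), and Myh4 0.25 (SE 0.14, adjusted p = 0.274). For Myh7 the estimate of 0.69 had an SE of 0.55 (adjusted p = 0.426), and leaving out 1 library at a time moved it between 0.14 and 1.16. Myh6 (0.34, SE 0.21, adjusted p = 0.314), Myh1 (0.21, SE 0.17, adjusted p = 0.438), Myh2 (0.19, SE 0.13, adjusted p = 0.326), Myh3 (0.19, SE 0.11, adjusted p = 0.282) and Myh13 (SE 0.09, adjusted p = 0.601) were also not called.

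**Figure D3:**
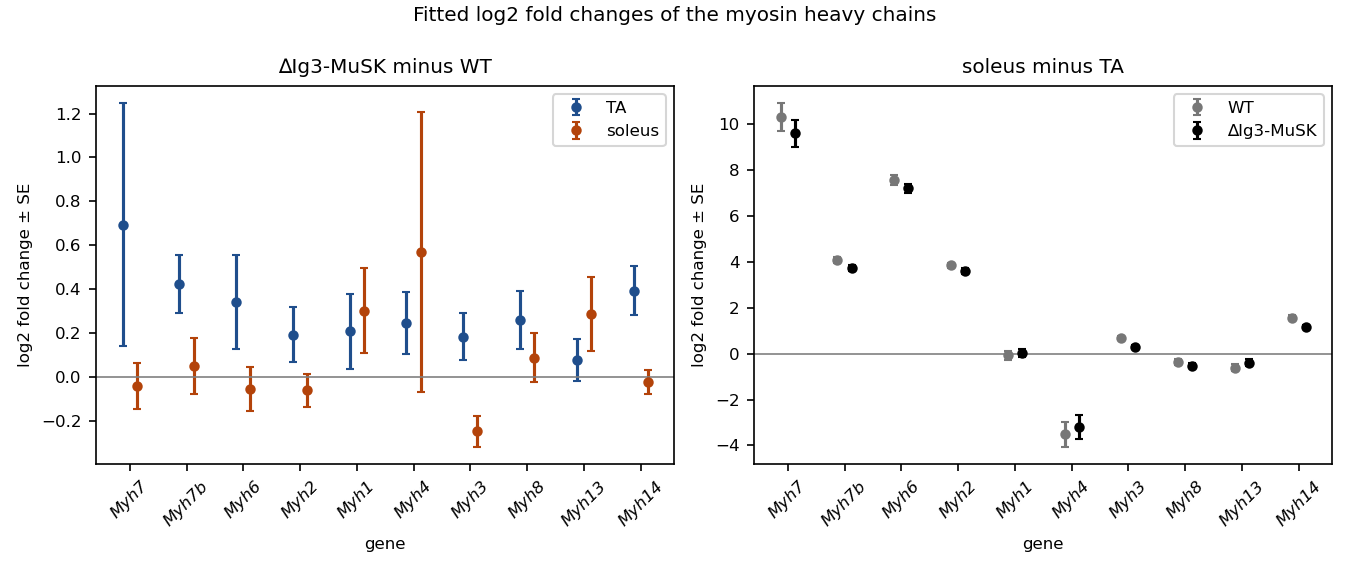
Estimated log2 difference of ∆Ig3-MuSK from WT for each member in TA and in soleus, and of soleus from TA in each genotype, with bars of 1 standard error (edgeR, n = 9 libraries per group). Between the genotypes, all 10 estimates lie above 0 in TA and 5 of 10 do in soleus, and no member was called in either muscle.

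In TA the genotype difference varied with transcript length in the fit of all libraries, WT TA replicates 3 and 5 included. The median log2 difference of all genes was -0.09 for those with up to 1000 bases of exon, 0.05 for those above 5000 and up to 8000 bases, and 0.12 above 8000 bases. In soleus the same medians ran from 0.03 to -0.02. All members belong to the longest 2 of the 6 classes. The long-transcript score of the libraries had a median of -0.04 in WT TA and 0.18 in ∆Ig3-MuSK TA. With the score as a covariate, 7 of 10 members had an estimate above 0 in TA and their median was 0.06. Myh4 was then at -0.0074, Myh3 at -0.019, Myh8 at -0.016, Myh7b at 0.24 and Myh14 at 0.23 (adjusted p = 0.676 for Myh14). Without the 2 lowest-scoring WT TA libraries, 10 of 10 were above 0 with a median of 0.14. The medians by exon length were not calculated without these libraries. What sets the score was not tested.

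**Figure D4:**
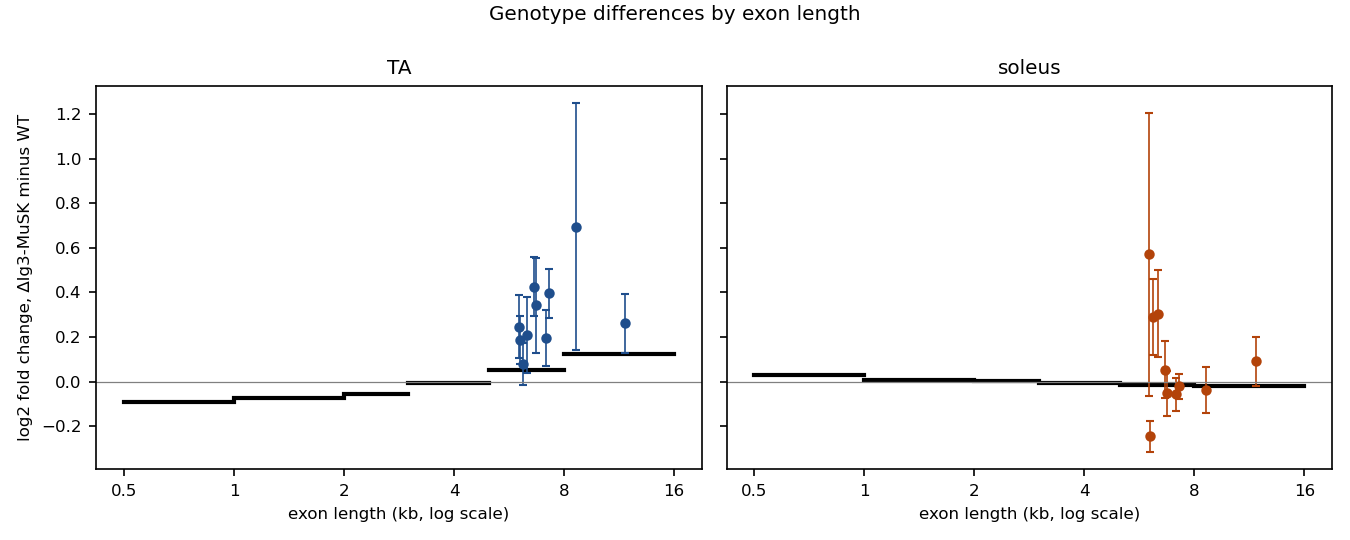
Median log2 difference of ∆Ig3-MuSK from WT over all genes in 6 classes of exon length, drawn as black bars against exon length in kilobases on a log axis, with the 10 members as points at their own length and bars of 1 standard error, in TA and in soleus. In TA the medians rise from -0.09 to 0.12 with length, and in soleus they run from 0.03 to -0.02. All libraries of each muscle are included, WT TA replicates 3 and 5 among them.

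In soleus the estimates went in both directions, 5 of 10 above 0, with a median of 0.02 against -0.00 for all genes. Myh3 was nearest to a call. It measured 38.3 to 59.1 CPM in WT and 36.0 to 45.9 in ∆Ig3-MuSK soleus, a log2 difference of -0.24 (SE 0.07, adjusted p = 0.0806 in edgeR). Its adjusted p was 0.0338 in DESeq2 and 0.0414 in limma-voom, where the change again stayed below 1.2-fold. All 9 ∆Ig3-MuSK libraries were below the WT median of 47.0, but the ranges overlapped. Myh4 had the largest estimate, 0.57, but also the largest error (SE 0.63, adjusted p = 0.669), and leaving out single libraries moved it between 0.38 and 1.15. Myh1 gave 0.30 (SE 0.20, adjusted p = 0.423) and Myh13 0.29 (SE 0.17, adjusted p = 0.379). Myh7 (-0.04, adjusted p = 0.878), Myh7b (0.05, adjusted p = 0.861), Myh6 (-0.05, adjusted p = 0.814), Myh2 (-0.06, adjusted p = 0.724), Myh8 (0.09, adjusted p = 0.703) and Myh14 (-0.02, adjusted p = 0.871) were within 0.1 of 0. Some markers of other cell types were called in soleus, where 0.952% of all genes were called. Of 3 muscle spindle markers, Egr3 was called lower in ∆Ig3-MuSK soleus (log2 difference -1.56, SE 0.38, adjusted p = 0.0459), while Etv4 (-0.34, adjusted p = 0.162) and Calb1 (0.44, adjusted p = 0.488) were not called. Of 6 nerve and brain markers, Syt1 (0.84, SE 0.19, adjusted p = 0.0390) and Gfap (0.86, SE 0.19, adjusted p = 0.0347) were called higher, and all 6 estimates were above 0. Of 4 smooth muscle markers, Acta2 was called lower (-0.38, SE 0.09, adjusted p = 0.0496). No marker of endothelium, fibroblasts, leukocytes or regenerating and immature fibers was called. All estimates in these lists were below 0, with medians of -0.20, -0.20, -0.35 and -0.28. Of 5 general skeletal muscle genes, 4 were above 0 and none was called. Of 4 immediate early genes listed as markers of handling, none was called. All their estimates were below 0, with a median of -0.62 in soleus and -0.51 in TA. Whether the lower Egr3 goes with these genes or with spindle fibers was not tested. The summed level of the spindle markers was 3.58 to 7.89 CPM in WT and 3.11 to 4.85 in ∆Ig3-MuSK soleus, that of the nerve and brain markers 37.6 to 59.7 and 36.6 to 88.8, and that of the smooth muscle markers 106 to 142 and 72.9 to 128, so that all 3 sums overlapped. The part of these markers in the member values was not tested.

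The effect of the deletion in soleus less that in TA was negative for Myh3 (-0.42, SE 0.13, adjusted p = 0.103) and for Myh14 (-0.41, SE 0.13, adjusted p = 0.103), and neither passed. Without WT TA replicate 9 the values became -0.47 (adjusted p = 0.0383) and -0.46 (adjusted p = 0.0381), and without ∆Ig3-MuSK TA replicate 3 that of Myh3 became -0.45 (adjusted p = 0.0471). Without WT TA replicates 3 and 5 the values were -0.33 for Myh3 (adjusted p = 0.258) and -0.29 for Myh14 (adjusted p = 0.240). With all libraries, the adjusted p of the other 8 members was 0.232 or above.

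None of the fixed companion lists was called between the genotypes. The counts were 0 of 10 slow genes, 0 of 11 fast genes, 0 of 17 regulators, 0 of 6 folding genes and 0 of 3 other class II chains in TA, in soleus and in the interaction alike. The fast genes had a median log2 difference of -0.13 in TA (2 of 11 above 0) and 0.20 in soleus (10 of 11 above 0). In TA most fast genes had estimates opposite in sign to those of Myh4 and Myh1. Estimates in TA also varied with exon length, with medians of -0.09 up to 1000 bases and 0.12 above 8000. With the long-transcript score as a covariate Myh4 was at -0.0074. The part of transcript length in these opposite signs was not tested. Pvalb, a calcium buffer of IIb fibers, gave -0.22 in TA (SE 0.09, adjusted p = 0.173) and 0.54 in soleus (SE 0.33, adjusted p = 0.393).

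The uneven Myh4 of soleus was shared by other genes, and how many was not counted. Over the 18 soleus libraries, after removal of each genotype's mean, the log2 level of Myh4 was closest to that of Actn3 (r = 0.941), Prkag3 (r = 0.904) and Pvalb (r = 0.895). Actn3 encodes the actin crosslinker of fast fibers and Prkag3 a subunit of AMP-activated kinase. Actn3 ranged from 38.9 CPM in replicate 8 to 1162 in replicate 1 of WT soleus and from 154 to 842 in ∆Ig3-MuSK soleus. All points share library, depth and composition, and these coefficients describe the libraries without a test. For Myh1 in soleus the closest were Myhas (r = 0.994), Myh13 (r = 0.974) and Ldhd (r = 0.899), for Myh7 they were Myh6 (r = 0.961), Gm29015 (r = 0.942) and Mhrt (r = 0.921), and for Myh2 they were Armcx4 (r = 0.802), Tbc1d5 (r = 0.793) and Smtnl1 (r = 0.788).

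In the 18 TA libraries the neighbors were partly the same. Myh7 lay closest to Mhrt (r = 0.992), Gm29015 (r = 0.964) and Tnnc1 (r = 0.936), the last of which encodes slow and cardiac troponin C and stood highest, at 7.90 CPM, in ∆Ig3-MuSK TA replicate 4. That library also had the highest Myh7 of the group. Myh1 lay closest to Myhas (r = 0.910), Afg3l2 (r = 0.896) and Gm45641 (r = 0.894), and the genes close to Myh2 included Gm45760 (r = 0.877) and Lrpprc (r = 0.861). Myh4 lay closest to Myh8 (r = 0.935), Rnf123 (r = 0.924) and Pygm (r = 0.923), the last being muscle glycogen phosphorylase.

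Several of these closest genes are transcribed from the members' own loci. Mhrt and Gm29015 lie opposite Myh7 and overlap its exons by 484 and 142 bases, 9430073C21Rik lies opposite Myh2 (237 bases), and Myhas lies opposite Myh1 and reaches to the start of Myh4 (515 bases of Myh1 exon). The libraries were not stranded, so that reads in these overlaps cannot be given to one strand. As a percent of Myh7 counts, Mhrt was 25.7% to 33.8% in soleus and 29.9% to 56.6% in TA. Mhrt therefore kept within 1.31-fold of a fixed ratio in soleus, where Myh7 itself varied 1.65-fold. Myhas was 11.6% to 18.8% of Myh1 over all 36 libraries. Without WT TA replicates 3 and 5 the highest values were 54.6% for Mhrt in TA and 15.3% for Myhas. Myh13, which shares exact windows with Myh1, was 1.45% to 1.92% of Myh1 in soleus and 1.85% to 3.71% in TA, the highest in ∆Ig3-MuSK TA replicate 1, where Myh1 was lowest. Myh8 was 1.24% to 1.56% of the sum of Myh1, Myh2 and Myh4 in TA and 1.76% to 2.03% in soleus (1.40% to 1.56% in TA without the same 2 libraries). Its ratio to this sum was thus higher in every soleus library than in any TA library, whereas its own level was lower in soleus on average. The sum leaves out Myh7, whose mean was 8473 CPM in WT soleus and 6.60 in WT TA. A ratio to a sum that includes Myh7 was not calculated.

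**Figure D5:**
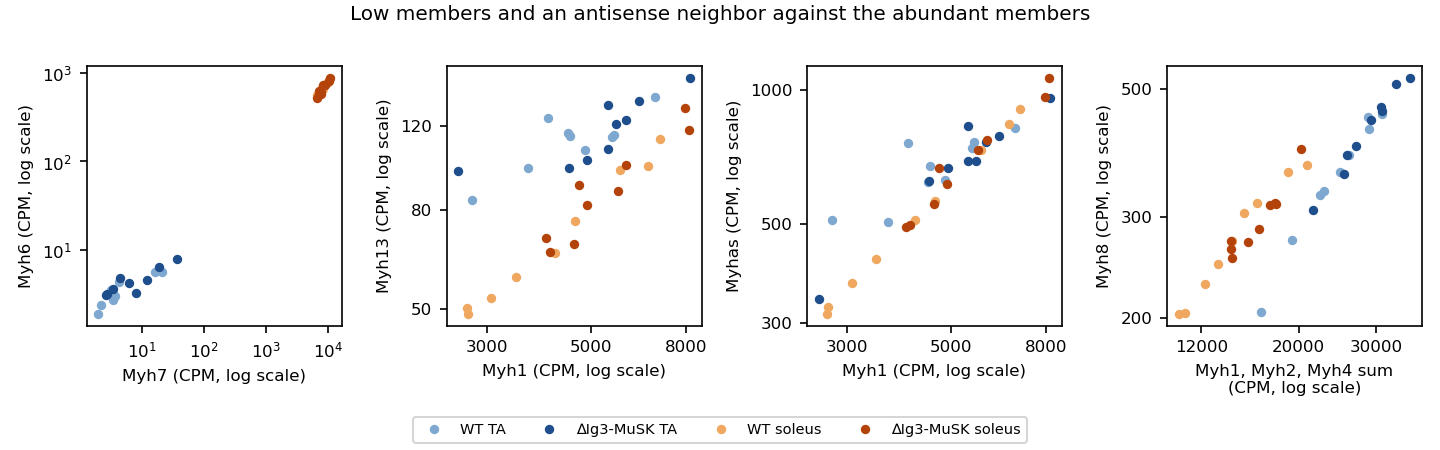
Levels of Myh6 against Myh7, Myh13 and the antisense gene Myhas against Myh1, and Myh8 against the sum of Myh1, Myh2 and Myh4, in CPM on log axes, with 1 point per library in 4 colors by group. Each low gene rises with its abundant partner within soleus, and Myh8 lies on a separate, higher line there (1.76% to 2.03% of the sum) than in TA (1.24% to 1.56%). The sum leaves out Myh7, which is abundant in soleus only.

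Myh1 and Myh4 are neighbors that behaved differently, with Myh1 at like levels in both muscles and Myh4 at its highest in TA, so the 250 bases before each start (RefSeq, GRCm38, plus strand; chr11:67199852-67200101 for Myh1 and chr11:67237562-67237811 for Myh4) are shown. Capitals mark matches, on either strand, to 5 motifs: the E-box CANNTG, the MCAT motif CATTCC, the TATA motif TATAAA, and the CArG and MEF2 motifs. A MEF2 match can contain a TATAAA match on its other strand, and the capitals of the 2 then merge.
Myh1: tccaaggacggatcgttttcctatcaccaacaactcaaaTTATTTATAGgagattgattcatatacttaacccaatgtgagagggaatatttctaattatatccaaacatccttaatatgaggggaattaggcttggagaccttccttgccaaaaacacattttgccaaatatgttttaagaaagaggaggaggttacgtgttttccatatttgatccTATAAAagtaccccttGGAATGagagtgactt
Myh4: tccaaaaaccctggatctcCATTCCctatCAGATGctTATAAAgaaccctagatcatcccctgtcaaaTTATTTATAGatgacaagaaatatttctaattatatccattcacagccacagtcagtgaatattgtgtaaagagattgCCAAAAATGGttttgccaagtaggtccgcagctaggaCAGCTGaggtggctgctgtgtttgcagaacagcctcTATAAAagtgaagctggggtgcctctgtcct
The Myh4 window held 2 E-box, 1 MCAT, 3 TATAAA, 1 CArG and 1 MEF2 matches, and the Myh1 window held 0, 1, 2, 0 and 1. Among 32851 mouse promoter windows of this length, 66.2% held an E-box, 12.6% MCAT, 12.4% TATAAA, 1.47% CArG and 2.92% MEF2. Both windows share the less frequent MEF2 match, and the CArG match is found in that of Myh4 alone among the 10 members. A match is a run of letters and was not tested for binding.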

How the data were processed

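Per the labels and the study's methods, RNA of whole TA and soleus muscles was sequenced from non-stranded libraries, and the authors trimmed reads (Trimmomatic), aligned them to GRCm38 (GSNAP) and counted them per gene (HTSeq). The deposited values are raw counts. The counting mode and annotation release are not given in the sources used here. Groups follow the sample labels. 1 muscle was taken per animal, by the study's description. The members, lists and tests were chosen with earlier results of these data known.

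Genes were kept by filterByExpr (minimum count 10, minimum total 15), scaled by TMM and tested with edgeR 4.0.16 (quasi-likelihood, R 4.3.3, Benjamini-Hochberg over all genes kept), within each muscle for genotype and over 36 libraries for muscle and interaction. Levels are CPM on a common TMM scale. Exon lengths and coordinates are from GENCODE's annotation of GRCm38. Shares were compared by exact two-sided permutation. Named genes are the 10 members, the 3 genes with the highest Pearson r to each of Myh7, Myh2, Myh1 and Myh4 in each muscle, and examples with the smallest p in fixed lists; 1 gene that this rule names is not reported here. Alternatives were DESeq2 1.42.0, limma 3.58.1, other scaling and filters, replicate blocks and leaving out each library. The steps were tested on simulated data, where 96% to 100% of 200 genes changed by 1 on the log2 scale were recovered over 5 comparisons and 2.91% to 6.10% of the calls were false (6.10% for genotype in TA, 5.88% for the interaction and 5.21% for muscle in ∆Ig3-MuSK mice). The simulated counts had the same spread in every gene and no shift shared by the genes of a library. Only genes above a minimum mean count were changed. The rate of false calls in the real libraries was therefore not measured. In the real libraries, the SE of the genotype difference was 0.63 for Myh4 in soleus and 0.55 for Myh7 in TA. Recovery of a change of 1 was not tested for members as uneven as these. Label numbers are shared by 16 TA and soleus pairs. Neither those nor title replicate numbers passed the check for pairing, so no block was used.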

Additional observations from a re-analysis of the deposited data

Results flagged for a closer look

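The level of each of the 10 members in each group, and the share of each adult chain, were checked for a library far from the other 8 of its group (56 checks by Dixon's ratio). 4 were found, and chance flags about 1 in 20 groups. Myh7 stood at 37.5 CPM in ∆Ig3-MuSK TA replicate 4, where the other libraries of the group ran from 2.66 to 18.7. In ∆Ig3-MuSK TA replicate 1 the Myh1 share was 6.91% (the others 17.0% to 24.3%) and the Myh4 share 92.0% (the others 73.3% to 81.3%), so that these are a single event seen in 2 shares. Myh8 stood at 394 CPM in ∆Ig3-MuSK soleus replicate 8 (the others 254 to 317).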

How the results depend on the processing

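Counts of genes called varied with the processing far more than the members did. In TA, 3 genes were called, and 10 without the filter on low counts, 225 with DESeq2, 150 with limma-voom, 692 with all 36 libraries in one fit and 3 to 9 with 1 library left out. In soleus, 185 were called, and 486 with DESeq2, 653 with limma-voom, 64 with the long-transcript score as covariate, 312 with all 36 libraries in one fit, and 22 (without WT replicate 5) to 602 (without WT replicate 1) with 1 left out. In the interaction 0 were called, and 180 with DESeq2 and 0 to 1300 with 1 left out (1300 without WT TA replicate 9 and 920 without ∆Ig3-MuSK TA replicate 3). The cause was not tested. Of 400 member values under other settings, 393 kept direction and side of the threshold, as did all 44 share values. The score settings and the coding-length scaling of shares were added after seeing the data. Under the score covariate Myh4 (-0.0074), Myh3 (-0.019) and Myh8 (-0.016) in TA and Myh7 (0.027) in soleus changed sign, and Myh14 in TA was called with DESeq2 and with all libraries in one fit. With 1 library left out, share differences ran from -0.118 to 0.0529 points for Myh2, -1.13 to 1.14 for Myh1 and -1.20 to 1.25 for Myh4 in TA. Log2 differences ran from -0.086 to 0.0019 for Myh7 in soleus, and for Myh1 between the muscles from -0.18 to 0.011 in WT and -0.059 to 0.12 in ∆Ig3-MuSK mice.

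With the title replicate number as a block, 0 genes were called in TA and 347 in soleus. With the label number as a block, 1 gene was called in the interaction (9 with limma-voom and a random block) and Myh1 between the muscles in ∆Ig3-MuSK mice became -0.16. The check did not meet its limit of a correlation over 0.1 in every pair. Same-numbered libraries of the genotypes correlated at -0.130 to 0.394 in TA and -0.279 to 0.313 in soleus. TA and soleus libraries with a shared label number correlated at 0.0256 to 0.123 in WT (over 0.1 in 2 of 8 pairs) and 0.0324 to 0.284 in ∆Ig3-MuSK mice (5 of 8), above 0 in all 16 pairs, and the labels do not say whether such a number marks 1 animal. Depth did not limit the adult chains. For Myh7 in TA the counts were 106 to 2862 in a library.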

Other observations

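Shared label numbers gave 16 pairs of a TA and a soleus library. Over these pairs, after removal of group means, the adult chain levels of the muscles were compared (Pearson's r and Spearman's rho, permutation tests, 4 relations). For Myh4 r was -0.245 (p = 0.421, adjusted p = 0.608) and rho -0.121 (p = 0.678, adjusted p = 0.892), with r = -0.111 without the 2 farthest pairs. For Myh1 r was 0.229 (p = 0.456, adjusted p = 0.608) and rho 0.0412 (p = 0.892, adjusted p = 0.892), with r = 0.0336 without the 2 farthest pairs. For Myh2 r was -0.328 (p = 0.241, adjusted p = 0.608) and rho -0.274 (p = 0.329, adjusted p = 0.892), with r = -0.220, and for Myh7 r was -0.0661 (p = 0.810, adjusted p = 0.810) and rho -0.106 (p = 0.701, adjusted p = 0.892), with r = -0.0378. No relation passed the test.

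∆Ig3-MuSK soleus replicate 2 had the highest ratio of each antisense gene named above to the member it overlaps among the 18 soleus libraries. Mhrt was 33.8% of Myh7 there (next 28.7%) and Gm29015 13.0% of Myh7 (next 11.1%). 9430073C21Rik was 12.6% of Myh2 (next 8.52%) and Myhas 14.2% of Myh1 (next 13.1%). The same library had the highest Myh6 (8.96%) and Myh13 (1.92%) as a percent of Myh7 and Myh1, and the highest Myh7b as a percent of Myh7 (0.788%). Its long-transcript score, -0.22, was also the lowest of the soleus libraries. Whether the ratios go with the score was not tested.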
